A study of Homo sapiens with 8 samples.

Results

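ITGAM, MS4A3 and CLC are 3 genes of the myeloid lineage that were followed across 3 comparisons of total RNA from K-562 cells, an established human chronic myeloid leukaemia line. They are 3 of the 1221 genes that appear in at least 1 of the authors' deposited gene tables, and all 3 appear in each table. They were found by gene name, and the names had been chosen by the log2 fold changes in these same tables, so the values below are a description and not an independent test. The groups are TASOR knockout cells, TASOR knockout cells expressing a FLAG-TASOR transgene, wild-type cells expressing a FLAG-TASOR2 transgene, and wild-type control cells with a negative guide RNA, with 2 libraries in each. TASOR belongs to the human silencing hub (HUSH), which represses LINE-1 elements, and TASOR2 is its paralog. Per the labels, knockout clones were grown from single cells sorted after CRISPR/Cas9 transfection, and lentivirus then delivered an empty puromycin vector or a FLAG-tagged transgene. The labels name no guide RNA for the FLAG-TASOR2 cells, so the transgene and the guide treatment cannot be told apart. Neither are separate clones or cultures described for the libraries of a group, so the deposited p-values rest on a spread between libraries that may be technical. The controls are titled parental wild type, so the knockout and the growth from single cells cannot be told apart. The knockout cells with and without FLAG-TASOR may also share a clone.

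K-562 cells can take on features of red cells, megakaryocytes or granulocytes and monocytes, and the 3 genes mark the myeloid side of that range. ITGAM encodes integrin alpha M (CD11b), which pairs with the ITGB2 product to form complement receptor 3 on neutrophils and monocytes. MS4A3 encodes a membrane protein of the MS4A family that is found in granulocyte and monocyte progenitors and in basophils. CLC encodes galectin-10, the protein of Charcot-Leyden crystals in eosinophils and basophils. The labels call the cells lymphoblasts. None of 20 lymphoid marker genes was listed in any of the authors' deposited tables (0 genes), and unlisted genes have no value there. The embryonic globin gene HBE1 was listed by the authors' deposited table for FLAG-TASOR at a log2 mean expression of 10.83, and the alpha-globin gene HBA1 by that for FLAG-TASOR2 at 10.15.

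The 3 genes lie on different chromosomes and no other annotated gene overlaps them (GENCODE 29, GRCh38). ITGAM (ENSG00000169896) lies on the plus strand of chromosome 16 at 31259967 to 31332892 and has up to 30 exons in a transcript. MS4A3 (ENSG00000149516) lies on the plus strand of chromosome 11 at 60056587 to 60071128 with up to 7 exons. CLC (ENSG00000105205) lies on the minus strand of chromosome 19 at 39731250 to 39738028 with 4 exons. The 250 bases before each RefSeq start are shown because the 3 genes are listed as lower side by side in both knockout groups, while MS4A3 alone is on the other side with FLAG-TASOR2. The windows (RefSeq, GRCh38.p14) are chr16:31259725-31259974 on the plus strand, chr11:60056415-60056664 on the plus strand and chr19:39738030-39738279 on the minus strand. Capitals mark 3 kinds of motif matched on either strand. These are GATA words (AGATA or TGATA followed by A or G), the ETS-type word AGGAAG and the C/EBP-type word TTNNGNAA, and no matches overlapped in these windows.
ITGAM: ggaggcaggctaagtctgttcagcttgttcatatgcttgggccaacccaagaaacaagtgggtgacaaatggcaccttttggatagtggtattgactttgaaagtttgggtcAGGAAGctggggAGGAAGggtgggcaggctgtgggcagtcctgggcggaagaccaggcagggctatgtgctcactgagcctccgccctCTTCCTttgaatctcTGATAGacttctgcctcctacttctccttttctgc
MS4A3: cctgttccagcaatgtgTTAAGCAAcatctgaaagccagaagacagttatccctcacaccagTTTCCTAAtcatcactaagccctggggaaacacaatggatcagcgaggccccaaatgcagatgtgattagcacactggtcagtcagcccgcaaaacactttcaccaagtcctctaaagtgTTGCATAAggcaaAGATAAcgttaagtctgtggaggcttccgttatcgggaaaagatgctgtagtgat
CLC: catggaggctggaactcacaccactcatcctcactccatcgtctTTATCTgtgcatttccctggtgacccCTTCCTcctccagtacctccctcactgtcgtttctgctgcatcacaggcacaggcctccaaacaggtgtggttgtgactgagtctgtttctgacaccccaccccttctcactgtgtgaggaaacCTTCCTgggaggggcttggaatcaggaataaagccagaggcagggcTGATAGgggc

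A GATA word was found in all 3 windows. It lay 35 to 30 bases before the start of ITGAM and 55 to 50 bases before that of MS4A3, and CLC had 1 at 206 to 201 and 1 at 10 to 5 bases before its start. Of all 35116 RefSeq windows of this length, 22.3% held a GATA word. The ETS-type word was found 3 times for ITGAM and 2 times for CLC, and 28.7% of all windows held it. The C/EBP-type word was found 3 times for MS4A3, and 33.2% of all windows held it. A GFI1-type word, AAATCA, was found in none of the 3 windows (0 matches), against 11.6% of all windows. The G and C content was 53.2% for ITGAM, 46.4% for MS4A3 and 55.2% for CLC, and the median of all windows was 58%. The GENCODE start of MS4A3 lies 78 bases upstream of the RefSeq start, so part of its window is transcribed in that annotation. These matches describe letters only.

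Each deposited table lists genes with an unadjusted p below 0.05, a log2 fold change beyond 1 in either direction and a log2 mean expression above 1, so absence from a table says nothing of a gene's level. Depth per library is unknown from the tables, and they hold no value per library. A level in each group was therefore derived from a table's log2 fold change and its log2 mean expression in CPM (counts scaled to the size of the library), read as the log2 of the mean of both groups. The same controls enter all 3 tables, so the control level is recovered 3 times, which measures how well this works and not the spread between libraries. An approximate standard error (SE) is given after ± and equals the size of the log2 fold change divided by the root of the authors' F score. TASOR itself was listed as lower in the knockout by the authors' deposited table, at a log2 fold change of -1.08 ± 0.23. With FLAG-TASOR it was not listed. TASOR2 was listed as higher with FLAG-TASOR2 by the authors' deposited table, at 2.26 ± 0.27.

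The first comparison set TASOR knockout cells against the controls, and all 3 myeloid genes were listed as lower. ITGAM was derived from the authors' deposited table at about 1.10 CPM in the knockout and 5.94 CPM in the controls. Its deposited log2 fold change was -2.44 ± 0.91 (p 0.0413, adjusted p 1.00 per the authors' deposited table). MS4A3 was derived at about 3.24 CPM in the knockout and 12.6 CPM in the controls, with a log2 fold change of -1.96 ± 0.42 (p 0.00464, adjusted p 1.00 per the authors' deposited table). CLC was derived at about 2.20 CPM in the knockout and 7.45 CPM in the controls, with a log2 fold change of -1.76 ± 0.60 (p 0.0297, adjusted p 1.00 per the authors' deposited table). The knockout thus held 18.5% of the control level of ITGAM, 25.7% of that of MS4A3 and 29.6% of that of CLC, derived from the authors' deposited table. MS4A3 had the smallest SE relative to its change and stood at place 54 of the 268 listed genes by p. ITGAM stood at place 239 and CLC at 183 per the authors' deposited table. Of 13992 genes tested, 0.936% were listed as lower and 0.00715% had an adjusted p below 0.05, and none of the 3 members was among those with such an adjusted p (0 of 3). The members were chosen on these values, so nothing is read from their share.

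The second comparison set TASOR knockout cells with FLAG-TASOR against the same controls, and the 3 genes were again listed as lower. ITGAM was derived from the authors' deposited table at about 1.09 CPM with FLAG-TASOR and 5.70 CPM in the controls, with a log2 fold change of -2.39 ± 0.70 (p 0.0171). MS4A3 was derived at about 2.27 CPM with FLAG-TASOR and 11.96 CPM in the controls, with a log2 fold change of -2.40 ± 0.48 (p 0.00352 per the authors' deposited table). CLC was derived at about 1.27 CPM with FLAG-TASOR and 7.33 CPM in the controls, with a log2 fold change of -2.52 ± 0.99 (p 0.0487 per the authors' deposited table), just inside the listing threshold. The adjusted p of all 3 was 0.999 per the authors' deposited table, and no gene of this table had one below 0.05 (0% of at least 13957 genes, with all 261 listed genes at an unadjusted p below 0.05 by the authors' edgeR-type F-test). Genes listed as lower made up 1.26% of that number. The 3 log2 fold changes with FLAG-TASOR spanned 0.13 per the authors' deposited table, less than any of their SEs. For ITGAM the log2 fold change with FLAG-TASOR differed by 0.05 from that of the knockout without it, for MS4A3 by -0.44 and for CLC by -0.77, derived from the authors' deposited tables. For ITGAM this is less than both approximate SEs, while for MS4A3 and CLC it is more than the SE in the knockout and less than that with FLAG-TASOR. Both comparisons use the same controls, and the 2 groups were not tested against each other.

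The third comparison set wild-type cells with FLAG-TASOR2 against the same controls, and here the 3 genes did not share a direction. ITGAM was derived from the authors' deposited table at about 0.236 CPM with FLAG-TASOR2 and 5.80 CPM in the controls, with a log2 fold change of -4.62 ± 0.78 (p 0.00101, adjusted p 0.153). CLC was derived at about 0.372 CPM with FLAG-TASOR2 and 7.51 CPM in the controls, with a log2 fold change of -4.33 ± 0.96 (p 0.00397, adjusted p 0.202 per the authors' deposited table). MS4A3 was on the other side, at about 55.2 CPM with FLAG-TASOR2 and 11.7 CPM in the controls, with a log2 fold change of 2.24 ± 0.41 (p 0.00166, adjusted p 0.176 per the authors' deposited table). FLAG-TASOR2 cells thus held 4.06% of the control level of ITGAM and 4.96% of that of CLC, while MS4A3 was 4.71-fold the control level, derived from the authors' deposited table. ITGAM and CLC passed the listing threshold on mean expression through the controls, since the log2 of their level with FLAG-TASOR2 alone was -2.09 for ITGAM and -1.43 for CLC. The same held for ITGAM in both knockout groups, at a log2 level of 0.13 in the knockout and 0.12 with FLAG-TASOR, and for CLC with FLAG-TASOR, at 0.35. Of 14001 genes tested, 3.76% were listed as lower, 2.56% as higher and 0.0357% had an adjusted p below 0.05, and no member was among the last (0 of 3, while all 3 passed 0.05 unadjusted by the authors' edgeR-type F-test). In bulk RNA, fewer cells of a kind and less RNA per cell cannot be told apart.

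**Figure D1:**
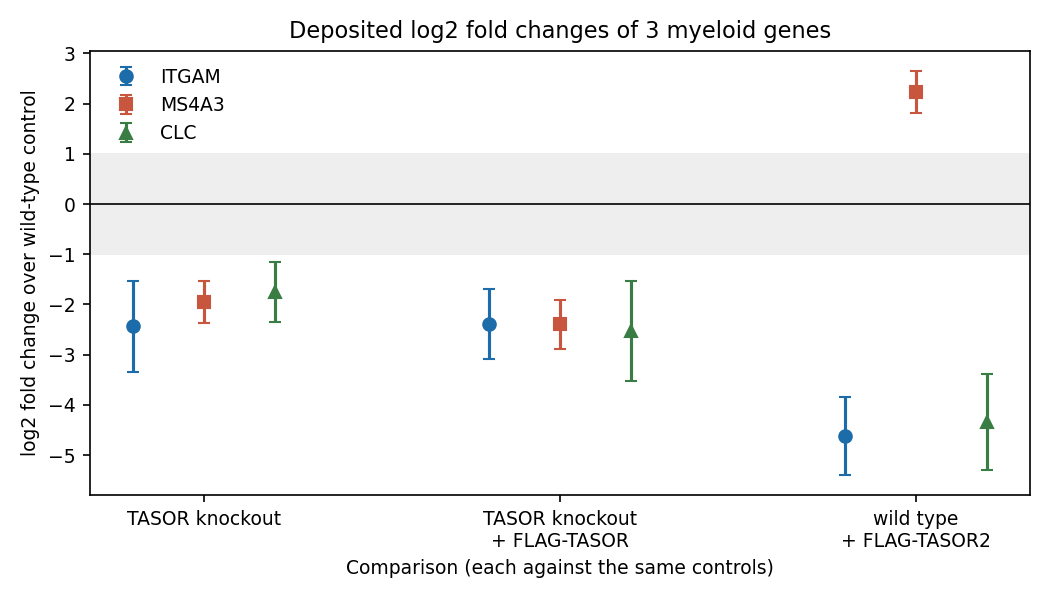
Log2 fold change of ITGAM (circles), MS4A3 (squares) and CLC (triangles) over wild-type controls in each of the 3 comparisons, with bars of 1 approximate SE; the grey band holds values too small to be listed. All 3 genes lie between -1.76 and -2.52 in the knockout groups, and MS4A3 alone lies above 0, at 2.24, with FLAG-TASOR2.

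Over the 4 groups, FLAG-TASOR2 cells were the lowest for ITGAM and CLC and the highest for MS4A3. MS4A3 stood at 55.2 CPM with FLAG-TASOR2, at 3.24 CPM in the knockout, at 2.27 CPM in the knockout with FLAG-TASOR, and at 11.7 to 12.6 CPM in the controls (3 estimates), derived from the authors' deposited tables. ITGAM stood at 0.236 CPM with FLAG-TASOR2, at 1.09 CPM in the knockout with FLAG-TASOR and at 1.10 CPM in the knockout, against 5.70 to 5.94 CPM in the controls. Its 2 knockout groups have no order, since the deposited log2 fold changes put them the other way round. CLC stood at 0.372 CPM with FLAG-TASOR2, at 1.27 CPM in the knockout with FLAG-TASOR and at 2.20 CPM in the knockout, against 7.33 to 7.51 CPM in the controls. The controls were therefore the highest group for ITGAM and CLC and the second for MS4A3. The recovered control level of a gene varied by at most 1.07-fold between tables, less than the distance of any altered group from it. With the mean expression read as a mean of logs, a choice added after the data had been seen, the level with FLAG-TASOR2 was 0.608 CPM for ITGAM, 0.878 CPM for CLC and 72.7 CPM for MS4A3, against control estimates of 14.98, 17.7 and 15.4 CPM from the same table. The ratio between the groups is the same under both readings, and the levels are not. The knockout groups with and without FLAG-TASOR are neighbours in the order of every gene, and no test of that step is possible without values per library.

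**Figure D2:**
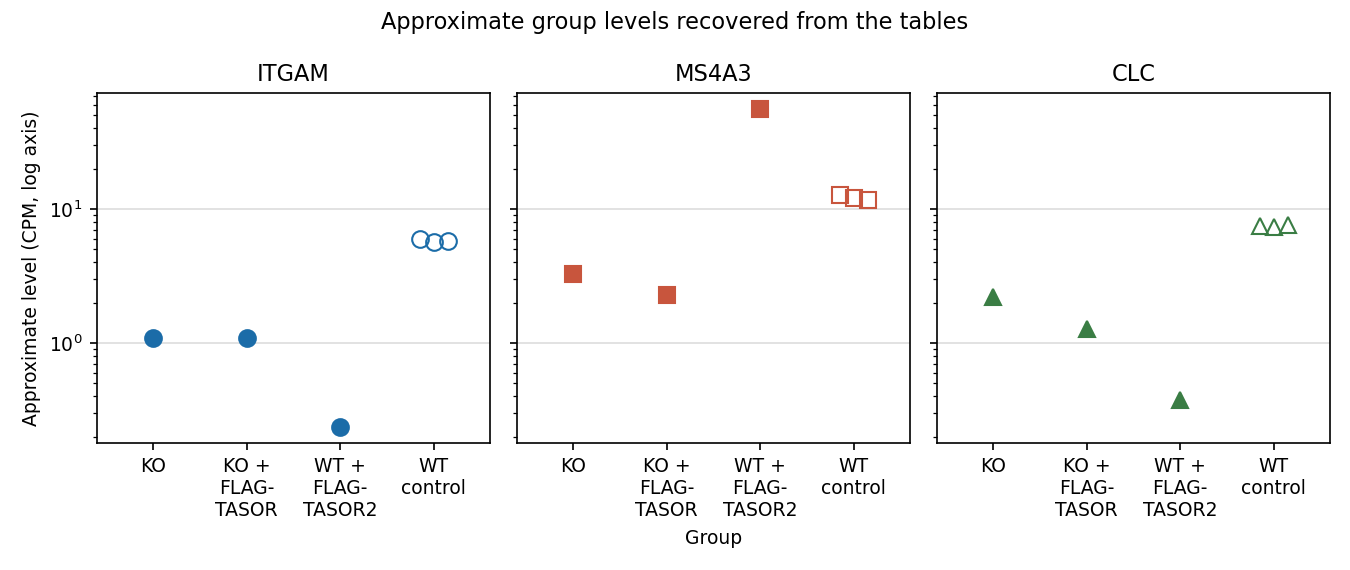
Approximate level in CPM (log axis) of ITGAM, MS4A3 and CLC in TASOR knockout (KO), KO with FLAG-TASOR, wild type (WT) with FLAG-TASOR2 and WT control; filled symbols are 1 estimate per altered group and open symbols are the 3 estimates of the control level, 1 from each table. Levels are not per length, so they compare groups within a gene only.

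Set among all listed genes, none of the 3 was the most extreme of a table. The lowest log2 fold changes were -10.47 in the knockout, -9.21 with FLAG-TASOR and -11.54 with FLAG-TASOR2 per the authors' deposited tables. Judged by their degrees of freedom, 9, 8 and 14 listed genes of these tables had all counts of a group at 0. Whether those genes set the lowest values was not tested. In the knockout, 34.4% of the 131 genes listed as lower were at least as far from 0 as ITGAM, 54.2% as MS4A3 and 61.8% as CLC, from the authors' deposited table, whose lower genes had a median log2 fold change of -2.12. With FLAG-TASOR these shares of the 176 lower genes were 26.1% for ITGAM, 25.6% for MS4A3 and 23.3% for CLC, and the median was -1.74 per the authors' deposited table. With FLAG-TASOR2, 5.51% of the 526 lower genes were at least as far from 0 as ITGAM and 6.84% as CLC, where the median was -1.85 per the authors' deposited table. MS4A3 was less far out on its side, with 37.2% of the 358 higher genes at least as far from 0, beside a median of 1.83 per the authors' deposited table. Ranked by mean expression, MS4A3 was at place 139 of 884 in that table, CLC at 679 and ITGAM at 772.

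**Figure D3:**
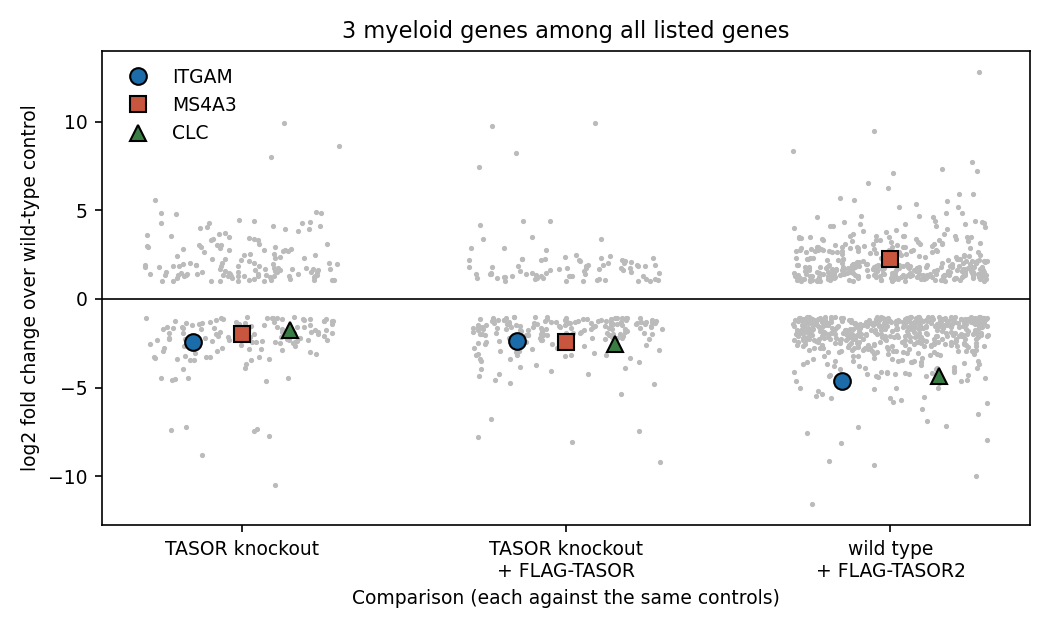
Log2 fold change over wild-type controls of every listed gene (grey points, 268, 261 and 884 genes from left to right) with ITGAM, MS4A3 and CLC marked; sideways position within a comparison carries no value. The members sit inside the cloud in all 3 comparisons, and with FLAG-TASOR2 ITGAM at -4.62 and CLC at -4.33 are in its lower part, which reaches -11.54.

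Genes with the most similar pattern were sought among those listed in all 3 tables with the same signs, by the Euclidean distance of their 3 log2 fold changes. ITGAM and CLC were near each other, at a distance of 0.75 among 11 candidates, per the authors' deposited tables. The gene nearest to CLC was GCNA, a gene of germ cells on the X chromosome, at a distance of 0.68, and MIR9-3HG, a host transcript of a microRNA gene, was the third at 1.84. GCNA had log2 fold changes of -1.59 in the knockout, -2.02 with FLAG-TASOR and -3.90 with FLAG-TASOR2 per the authors' deposited tables. For ITGAM, GCNA was the second at 1.17 and TRIM67, a tripartite motif gene, the third at 1.71. No other named gene that was listed in all 3 tables had the signs of MS4A3 (0 candidates). Genes not listed in all 3 were not candidates, and some of them also changed sides. ENSG00000197134, for example, was at -1.60 in the knockout and 1.47 with FLAG-TASOR2. A search added after the data had been seen used the 2 knockout tables only. There the gene nearest to MS4A3 was CLC at 0.24 among 33 candidates, followed by ELFN1-AS1 at 0.32 and TAB2 at 0.34. These distances are below the approximate SE of MS4A3 in both tables (0.42 and 0.48), so nothing is read from their order. The members were chosen by these log2 fold changes, so nothing is read from 1 member being near another. The comparisons share their controls, so a level that was high in these 2 control libraries and one that was low in each altered group cannot be told apart for genes listed as lower throughout.

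Other genes of the myeloid lineage are set beside the share of all tested genes that each table lists. The 4 lists of granulocyte and neutrophil genes, of eosinophil, basophil and mast cell genes, of monocyte and macrophage genes and of myeloid transcription factors hold 89 genes, of which 86 are not members. In the knockout, no gene other than the members was listed (0 of 86 by the authors' edgeR-type F-test at p below 0.05 unadjusted, with the listing thresholds on fold and expression), against 1.92% of all genes tested. With FLAG-TASOR, 1 of 86 was listed (1.16%, against 1.87% of all genes), GFI1, a transcriptional repressor needed for neutrophil formation. GFI1 was derived from the authors' deposited table at about 0.683 CPM with FLAG-TASOR and 3.95 CPM in the controls, with a log2 fold change of -2.53 ± 0.64 (adjusted p 0.999). With FLAG-TASOR2, 7 of 86 were listed (8.14%, against 6.31% of all genes tested), all 7 as lower (3.76% of all genes), with a median log2 fold change of -3.50 per the authors' deposited table. The 526 genes listed as lower in that table had a median of -1.85, and they made up 59.5% of all 884 listed genes. None of the 7 had an adjusted p below 0.05 (0 genes, 7 at an unadjusted p below 0.05), and the smallest was 0.139 per the authors' deposited table. All of the 7 but PRG2 were derived at 0.315 to 1.45 CPM with FLAG-TASOR2 and passed the listing threshold on mean expression through the controls. The same held for GFI1 with FLAG-TASOR. Genes this low in the altered group could be listed only as lower, so nothing is read from their shared direction. With the members counted, 9 genes of the 4 lists were listed as lower with FLAG-TASOR2, 3 in the knockout and 4 with FLAG-TASOR. Among listed genes at or above the median expression these counts were 2, 1 and 1. List shares here and below are of all genes in a list, tested or not.

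The list of eosinophil, basophil and mast cell genes held 4 of these 7 per the authors' deposited table for FLAG-TASOR2. PRG2, which encodes the major basic protein of eosinophil granules, was derived at about 4.52 CPM with FLAG-TASOR2 and 29.4 CPM in the controls, with a log2 fold change of -2.70 ± 0.43 (adjusted p 0.139 per the authors' deposited table). EPX, the eosinophil peroxidase, was derived at about 0.674 CPM with FLAG-TASOR2 and 3.94 CPM in the controls, at -2.55 ± 0.71 per the authors' deposited table. CSF2RB, the beta chain shared by the receptors for IL-3, IL-5 and GM-CSF, had a log2 fold change of -3.50 ± 0.72 per the authors' deposited table. ALOX5, which starts leukotriene synthesis, had one of -4.30 ± 1.07 per the authors' deposited table. With CLC these are 5 of 24 eosinophil, basophil and mast cell genes listed as lower, and MS4A3 is the 1 listed as higher. Without the 2 members that is 4 of 22, or 18.2%. With FLAG-TASOR2, 3.76% of all genes tested were listed as lower and 6.31% in either direction. All of these 4 but PRG2 passed the listing threshold on mean expression through the controls, so nothing is read from their shared direction. The other 18 genes of that list were not listed, among them the mast cell tryptase genes TPSAB1 and TPSB2 and the eosinophil ribonuclease genes RNASE2 and RNASE3.

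Outside that list, single genes were listed with FLAG-TASOR2. AIF1, a calcium-binding protein of macrophages, was at -4.13 ± 0.93 and ANPEP (CD13), a membrane peptidase of myeloid cells, at -4.32 ± 1.06 per the authors' deposited table. GFI1 was derived at about 0.858 CPM with FLAG-TASOR2 and 4.50 CPM in the controls, at -2.39 ± 0.65 per the authors' deposited table. Of 26 granulocyte and neutrophil genes 1 was listed (ANPEP, 3.85%), and of 23 monocyte and macrophage genes 2 (ITGAM and AIF1, 8.70%). Of 17 myeloid transcription factors 1 was listed (GFI1, 5.88%). These shares rest on 1 or 2 genes each, and the monocyte and macrophage share holds ITGAM, a member chosen on these tables. Nothing is read from them beside the 6.31% of all genes tested that were listed with FLAG-TASOR2, or the 3.76% listed as lower. The transcription factor genes SPI1, CEBPA and CEBPE and the granule genes MPO and ELANE were in none of the authors' deposited tables.

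Beside the 3 members, the families held 1 other listed integrin gene, 1 other galectin gene and no other MS4A gene. Of 26 integrin subunit genes, ITGAM alone was listed in each knockout table, and ITGB7, the beta 7 subunit of lymphocyte homing integrins, joined it with FLAG-TASOR2 at a log2 fold change of -3.12 ± 0.61 per the authors' deposited table. ITGB2, which encodes the partner of ITGAM, was in none of the authors' deposited tables. Of 18 genes of the MS4A family and its relatives, MS4A3 alone was listed in each table, and of 16 galectin genes CLC alone in the knockout tables. LGALS12, the galectin-12 gene, joined CLC with FLAG-TASOR2 at -2.49 ± 0.66 per the authors' deposited table. With the members counted, 3.85% of the integrin, 5.56% of the MS4A and 6.25% of the galectin genes were listed in each knockout table, against 1.92% and 1.87% of all genes tested, and 7.69%, 5.56% and 12.5% with FLAG-TASOR2, against 6.31%. These shares hold the members, which were chosen on these tables, so nothing is read from them. Family members lie close to each member: 15 MS4A genes within 1 Mb of MS4A3, 6 galectin genes within 1 Mb of CLC, and ITGAX, ITGAD and ITGAL within 1 Mb of ITGAM (3 genes). None of these neighbours was listed in any table (0 genes). The nearest of them are MS4A2 at 17.1 kb, LGALS14 at 21.8 kb and ITGAX at 22.2 kb.

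At most 1 other gene within 1 Mb of a member was listed in each table. The windows hold 47 to 66 annotated protein-coding genes each, and the listed genes were not limited to that type. Shares of 1.92%, 1.87% and 6.31% of all genes tested were listed in the knockout, FLAG-TASOR and FLAG-TASOR2 tables, and nothing is read from counts of 0 or 1. Around ITGAM, where 59 other protein-coding genes are annotated, ORAI3, a calcium channel gene 304 kb away, was listed as lower in the knockout at -1.15 ± 0.36 per the authors' deposited table. With FLAG-TASOR2, 1 unnamed gene (ENSG00000261840), 561 kb from ITGAM, was listed as higher at 1.71 ± 0.61 per the authors' deposited table. Around MS4A3, FAM111A at 902 kb was listed as lower with FLAG-TASOR2, at -1.32 ± 0.31 per the authors' deposited table, opposite to MS4A3. Around CLC, ZFP36 at 322 kb was listed as higher with FLAG-TASOR2, at 1.24 ± 0.44 per the authors' deposited table, opposite to CLC. With FLAG-TASOR no gene within 1 Mb of any member was listed (0 genes).

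Red cell and platelet genes were listed on the other side from ITGAM and CLC with FLAG-TASOR2. Of 23 erythroid genes 5 were listed (21.7%), all 5 as higher, with a median log2 fold change of 1.94, per the authors' deposited table. Of 16 megakaryocyte and platelet genes 3 were listed (18.8%), all 3 as higher, with a median of 1.77. Over all genes tested with FLAG-TASOR2, 2.56% were listed as higher and 6.31% in either direction. The erythroid median was the value of HBB, the beta-globin gene, derived at about 3.83 CPM with FLAG-TASOR2 and 0.998 CPM in the controls. HBB passed the listing threshold on mean expression through the FLAG-TASOR2 group, so it could be listed only as higher. The anion exchanger of red cells, SLC4A1, stood at 2.62 ± 0.31, and the globin genes HBA2, HBZ and HBA1 at 2.04 ± 0.30, 1.38 ± 0.44 and 1.12 ± 0.20 per the authors' deposited table. THBS1, thrombospondin-1, was at 3.21 ± 0.24 (adjusted p 0.0353), TUBB1, the platelet tubulin gene, at 1.77 ± 0.25 and GP1BB, a platelet receptor subunit gene, at 1.59 ± 0.26 per the authors' deposited table. None of the 5 erythroid genes had an adjusted p below 0.05 (0 genes), and the smallest was 0.117 by the authors' edgeR-type F-test. Of the 3 megakaryocyte and platelet genes, THBS1 alone had one (1 gene). HBA1 and HBA2 are near-identical copies that can share reads, so their values are uncertain. MS4A3, at 2.24, lay within the range of these genes, and every other listed gene of the myeloid lists lay below 0. The median of all 358 genes listed as higher, 1.83, lay in that range too, so nothing is read from the place of MS4A3. In the knockout 1 of 23 erythroid genes (4.35%) and 0 of 16 megakaryocyte and platelet genes were listed, and with FLAG-TASOR 2 of 23 (8.70%) and 1 of 16 (6.25%), in tables that list 1.92% and 1.87% of all genes tested (0.979% and 0.609% as higher). The erythroid gene CA2 (carbonic anhydrase II) was listed as lower at -2.95 ± 0.55 in the knockout and -1.53 ± 0.46 with FLAG-TASOR, and with FLAG-TASOR HBE1 was listed as higher at 2.24 ± 0.57 and THBS1 at 1.91 ± 0.69 per the authors' deposited tables. The part of the erythroid and megakaryocyte genes in the values of the 3 members was not tested.

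**Figure D4:**
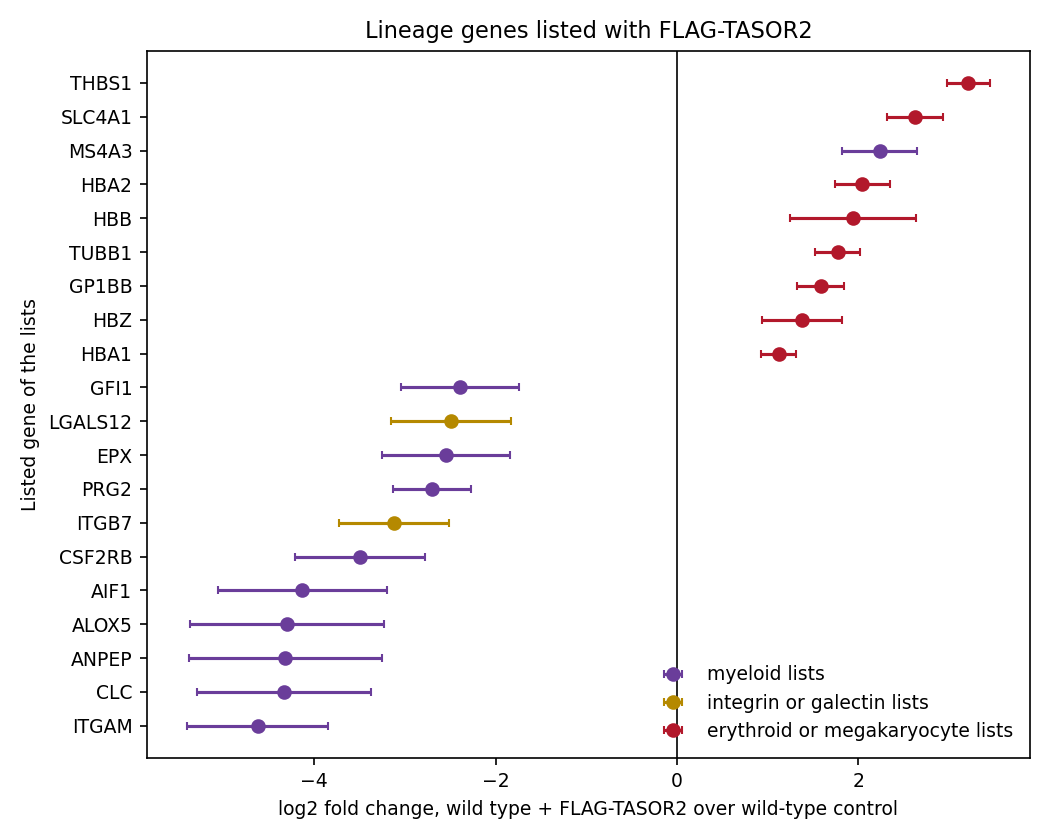
Log2 fold change with FLAG-TASOR2 over wild-type controls of every listed gene of the lineage, integrin, MS4A and galectin lists, with bars of 1 approximate SE. Of the 10 genes in the myeloid lists, 9 lie below 0, from -2.39 (GFI1) to -4.62 (ITGAM). MS4A3 lies at 2.24, within the range of the erythroid and megakaryocyte genes, which also holds the median of all genes listed as higher (1.83).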

How the data were processed

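Ribosomal RNA-depleted total RNA of 8 K-562 libraries in 4 groups was sequenced by the authors. Tools in the submitters' processing notes are edgeR, DESeq2, Salmon and STAR 2.7.8, with the hg38 build and no roles stated, and per the labels' protocols libraries had 13 PCR cycles. Per the file headers, the deposited columns are the log2 fold change, the logCPM (a log2 mean), the F score and the p-value with its adjusted p-value. These column names match edgeR's quasi-likelihood output, but the tool behind the tables is not given in the labels. The tables hold comparisons only, so no model was refitted.

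Group levels, approximate SEs and ranks were computed with Python 3.11.15, pandas 2.3.3, NumPy 2.4.6 and SciPy 1.17.1, and the recovery was tested on simulated data. The number of genes tested is the adjusted p of the first-ranked gene divided by its p or, for FLAG-TASOR, the highest row number, a lower bound. Over genes shared by 2 tables, the recovered control levels differed by a median absolute log2 of 0.08 (58 genes), 0.13 (99 genes) and 0.13 (59 genes). Genes with all counts of a group at 0, by their lower degrees of freedom, were left out of this check, and no member is such a gene. Gene positions came from GENCODE 29.

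The members and gene lists were chosen with earlier results of these data known. Named were the members, all listed genes of the myeloid and family lists, up to 4 listed genes of the erythroid, megakaryocyte and lymphoid lists by adjusted p, TASOR and TASOR2, the 3 nearest genes of each member and listed genes within 1 Mb. HBB was named as well, since its value is the erythroid median with FLAG-TASOR2. Unlisted genes were picked for mention after their status was seen, and the motifs were chosen with the sequences known. Alternatives changed the SE, ranking, thresholds, window and reading of the mean expression.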

Additional observations from a re-analysis of the deposited data

How the results depend on the processing

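No paired analysis was possible because the tables hold no value per library; for the same reason no replicate could be left out. An SE taken from the p-value equalled the one from F for all 9 log2 fold changes, as follows from how the degrees of freedom were recovered. With the mean expression read as a mean of logs, an alternative added after the data had been seen, the levels moved and the ratios between groups did not. The levels in the altered groups became 1.51, 1.48 and 0.608 CPM for ITGAM, 4.02, 3.10 and 72.7 CPM for MS4A3 and 2.63, 1.79 and 0.878 CPM for CLC (knockout, FLAG-TASOR and FLAG-TASOR2). The control levels became 8.18, 7.77 and 14.98 CPM for ITGAM, 15.6, 16.3 and 15.4 CPM for MS4A3 and 8.87, 10.3 and 17.7 CPM for CLC (knockout, FLAG-TASOR and FLAG-TASOR2 table), and the 3 estimates of ITGAM and of CLC then lay farther apart.

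The share of genes at least as far from 0 depended on the genes ranked. Among genes at or above the median expression it was 21.0% for ITGAM, 34.4% for MS4A3 and 40.3% for CLC in the knockout, 18.4%, 17.4% and 16.1% with FLAG-TASOR, and, with FLAG-TASOR2, 21.5% for MS4A3 and 4.58% for CLC. Ranked by p, it was 90.8% for ITGAM and 13.7% for MS4A3 in the knockout, 38.1% for ITGAM, 9.66% for MS4A3 and 97.2% for CLC with FLAG-TASOR, and 9.32% for ITGAM, 14.0% for MS4A3 and 26.4% for CLC with FLAG-TASOR2. The other 11 of 27 such shares stayed within the binomial interval of the first value.

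At an adjusted p below 0.10, 8 genes passed with FLAG-TASOR2, and at an unadjusted p below 0.01, 93 in the knockout, 63 with FLAG-TASOR and 387 with FLAG-TASOR2. Of genes in the myeloid lists, 1 in the knockout was lower by more than 2 on the log2 scale. At or above the median expression, 1 was lower in the knockout, 1 with FLAG-TASOR and 2 with FLAG-TASOR2. Within 2 Mb of ITGAM 2 genes were listed in the knockout, 1 with FLAG-TASOR and 2 with FLAG-TASOR2, near MS4A3 1 with FLAG-TASOR, and near CLC 3 with FLAG-TASOR2. Within 0.5 Mb, 0 were listed near ITGAM and 0 near MS4A3 with FLAG-TASOR2. These counts follow from the number of genes each setting admits. With mean expression added to the distance, the 3 nearest genes of ITGAM and CLC changed by at most 1.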
